A study of Mus musculus with 2 samples.

Results

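Mature neutrophils low in granule transcripts made up 142 of the 2985 cells kept from mouse central nervous system (CNS) after transplantation of blood-forming cells. They were chosen by their own transcripts. Barcodes, each standing for 1 cell, were kept if they had 500 or more genes, if mitochondrial transcripts made up less than 10% of their UMIs (unique molecular identifiers, which count single mRNA molecules), and if they were not listed in both libraries. Levels were expressed as CPM, the UMIs of a gene times 1000000 over the UMI total of the cell or of the cells summed. Members had S100a8 and S100a9 together at 20000 CPM or more, the granule genes Camp, Ngp and Ltf together under 3000 CPM, and the microglial complement genes C1qa, C1qb and C1qc together under 1000 CPM. These 8 genes therefore chose the members, and their levels are a description. The Het library, of genotype Cx3cr1-/+, held 49 members among 1234 kept cells, and the WT library, of genotype Cx3cr1+/+, held 93 among 1751.

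Both libraries were labelled as microglia-like cells of the CNS and came from the Chromium 3′ v3.1 kit of 10x Genomics. Per the labels' protocols, GFP+ and GFP- cells from the Lin- pool (marrow cells without markers of mature blood lineages) of Cx3cr1-/+ mice were given by vein to CD45.1 recipients, at a 1:1 ratio of donors to recipients. Beforehand the recipients were given busulfan (4 doses, 25 mg/kg each), which depletes the host's own blood-forming cells. That text is the same for both libraries, so the donor of the WT library is not stated in the sources used here, and neither are sex, age, time after transplantation or the number of animals. Host neutrophils and their progenitors were not told apart from donor ones by any label. There was 1 library per genotype, so the comparisons below set 1 library against the other, have no replicate check and carry no test. All intervals are 95% intervals for counting error only.

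Neutrophils are short-lived granulocytes that mature in the bone marrow and enter the blood ready to leave it for inflamed tissue. During maturation they first make azurophil granules, then specific (secondary) granules, then gelatinase granules, and the mRNAs of the early granule proteins are shut off before the cell leaves the marrow. Mature neutrophils keep S100a8 and S100a9, which encode the subunits of calprotectin, a calcium- and metal-binding protein of the cytosol, and gain receptors for chemokines and for the growth factor G-CSF.

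Summed over the members, neutrophil genes outside the gate were abundant, against the library label of microglia-like cell. Retnlg, a resistin-like protein secreted by mouse neutrophils and not part of the gate, stood at 18200 CPM in Het members and 13074 CPM in WT members. It stood at 51.6 and 85.7 CPM in the C1q-positive Het and WT cells under the S100 minimum, the microglia-like cells of the same libraries. Cxcr2, the receptor for neutrophil-attracting chemokines, stood at 453 and 380 CPM in Het and WT members, and G0s2, an inhibitor of triglyceride lipase, at 1979 and 1588 CPM. All 15 markers of the neutrophil list, which includes S100a8 and S100a9 of the gate, had UMIs in both sets of members. A single WT member, of 93, had no UMI of Retnlg, Cxcr2, G0s2 or Csf3r (the receptor for G-CSF), and no Het member lacked all 4. A member passes this check with 1 UMI, so it does not show that each is a neutrophil. The Het members of 25127 and 20639 CPM of S100a8 and S100a9 together passed with Retnlg at 92.4 and 68.6 CPM. Those values lay near the 51.6 CPM of the C1q-positive Het cells. Markers of other cells were also present. All 11 monocyte and all 18 microglia and macrophage markers had UMIs in both sets of members, described at the end. Of 7 eosinophil markers, 1 (Ear2) had UMIs in Het members, in 9 cells, and 3 in WT members, in 37 cells, while Epx and Prg2, the defining granule proteins, were at 0. Of 12 natural killer and T cell markers, 7 had UMIs in 6 Het members and 4 in 12 WT members, with Cd3e at 0. Of 6 basophil and mast cell markers, 1 had UMIs, in 1 member of each library, with Mcpt8, Cpa3 and Ms4a2 at 0. Of 7 B cell markers, 3 had UMIs, in 7 Het and 24 WT members.

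Members were 3.97% (2.95 to 5.22) of Het kept cells and 5.31% (4.31 to 6.47) of WT kept cells. Of the cells past the S100 minimum, they were 17.0% (12.9 to 21.9) of 288 Het cells and 21.5% (17.7 to 25.7) of 432 WT cells. The rest of those cells were granule-high neutrophils, 72 in the Het library and 91 in the WT library, and barcodes with S100 and C1q transcripts together, 167 and 248. Both pairs of intervals overlapped, and any sort of the CNS cells, which the labels do not describe, could set these shares.

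The libraries held 17828344 UMIs (Het) and 22062823 UMIs (WT). Het members had a median of 5333 UMIs and 1166 genes, and WT members 5402 UMIs and 1451 genes, against medians of 18436 and 16250 UMIs in the granule-high neutrophils. Of the barcodes, 339 were listed in both libraries and left out. Of the 49 Het members, 19 had UMIs of Xist, the transcript of the inactive X chromosome, and 0 had Y-linked UMIs. Of the 93 WT members, 51 had Y-linked UMIs without Xist, 5 had both and 0 had Xist alone. The sex marks therefore differed between the libraries together with the genotype, and the effects of sex and genotype cannot be told apart.

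**Figure D1:**
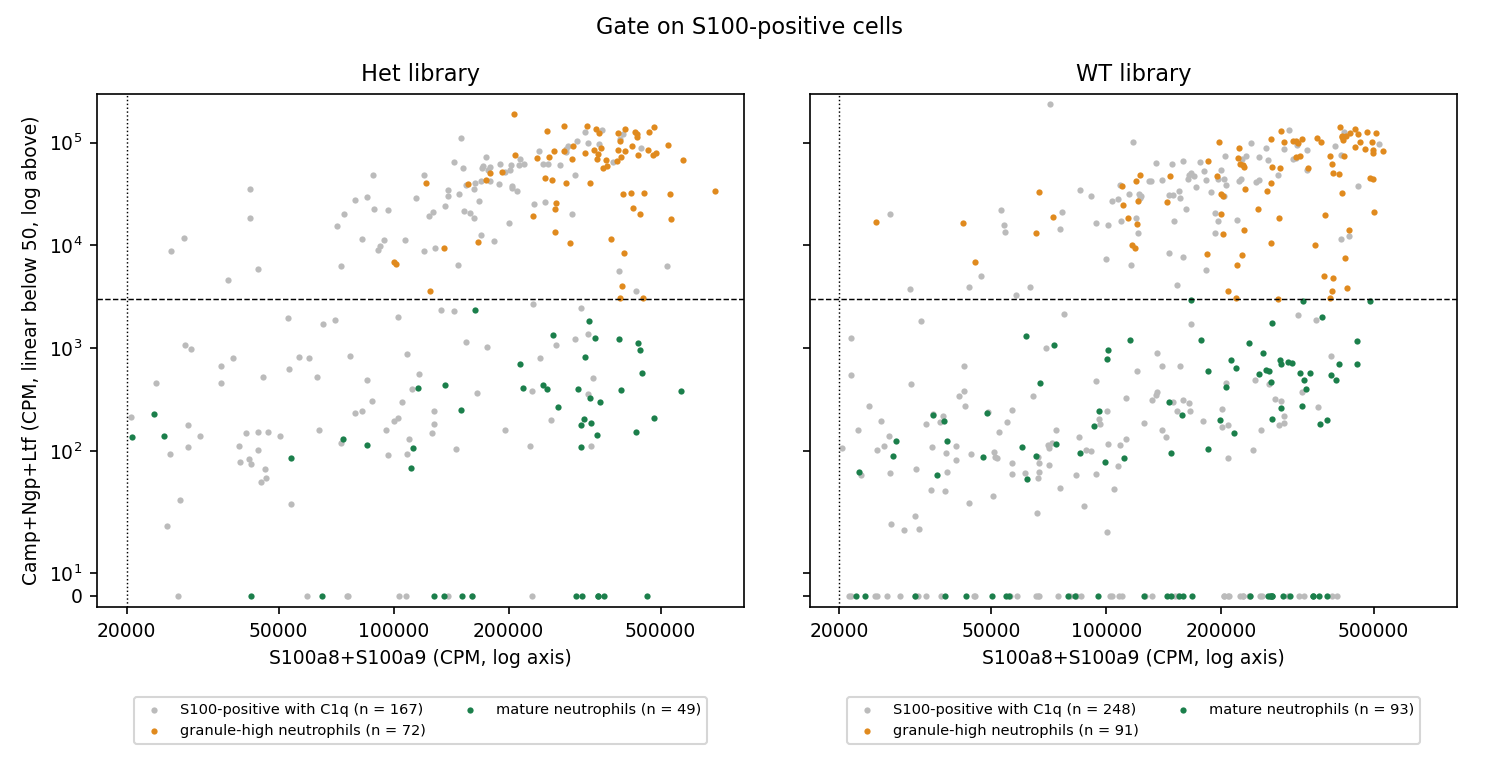
Each point is a kept cell past the S100 minimum, with its S100a8+S100a9 level (CPM, log axis) across and its Camp+Ngp+Ltf level (CPM, linear below 50 and log above) up the page, Het left and WT right. Dashed lines mark the limits of 20000 and 3000 CPM, and the 49 Het and 93 WT members (green) lie below the granule limit, among cells that carry C1q transcripts (grey) and under the granule-high neutrophils (orange).

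The limits cut a range rather than an empty gap for the granule and C1q sums. The lowest S100 sum of a member was 20639 CPM in the Het library and 22116 CPM in the WT library, and the nearest cell below the limit had 17351 and 15236 CPM. The highest granule sum of a member was 2325 CPM (Het) and 2915 CPM (WT), beside 3071 and 3002 CPM in the nearest cell above. For the C1q sum the nearest members had 961 and 977 CPM and the nearest cells outside 1074 and 1034 CPM. Most members were far from the granule limit, with a median sum of 204.8 CPM in Het and 181.6 CPM in WT members. No granule UMI at all was counted in 12 Het and 29 WT members. At least 1 C1q UMI was found in 40 Het and 67 WT members, with median sums of 317 and 319 CPM.

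The most abundant transcripts of the members were those of calprotectin, followed by Retnlg, the noncoding RNA Malat1, thymosin beta 4 (Tmsb4x), ferritin heavy chain (Fth1), S100a6 and actin (Actb). S100a8 (GRCm38 chr3:90668978-90670035, plus strand) ranged over the members from 7885 CPM through a median of 136233 CPM to 313437 CPM in the Het library, and from 9513 through 81535 to 234144 CPM in the WT library. S100a9 (chr3:90692632-90695721, minus strand) had a lowest value, median and highest value of 12754, 136568 and 316050 CPM in Het members and 3747, 98315 and 256417 CPM in WT members. Both genes were present in all members, and the ranges of the libraries overlapped over most of their length.

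Retnlg (chr16:48872621-48874496, plus strand) was found in 48 of 49 Het and 92 of 93 WT members. Its median was 18533 CPM in Het members and 13110 CPM in WT members, with single cells as high as 68029 and 84149 CPM. With each cell thinned to 1000 UMIs, 91.8% of Het and 94.6% of WT members had a Retnlg UMI, beside 4.22% and 8.89% of the C1q-positive cells under the S100 minimum, whose median depths were 7022 and 5890 UMIs before thinning. The same shares for Cxcr2 were 46.9% and 32.3% of Het and WT members and 0.192% and 0.468% of those C1q-positive cells. G0s2 was found in 65.3% and 62.4% of thinned Het and WT members, beside 1.54% and 4.06%. All 3 markers were thus far more frequent in members than in the cells that should lack them.

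Members differed widely in how much of their RNA was calprotectin. The S100a8+S100a9 sum had a median of 300881 CPM in Het members (lowest 20639, highest 565764) and 184290 CPM in WT members (lowest 22116, highest 490561). Members were therefore also divided at 50000, 100000 and 200000 CPM of that sum, limits chosen after the values were seen. The 4 groups, from low to high, held 4, 4, 10 and 31 Het members and 14, 17, 18 and 44 WT members. The highest group was 63.3% (48.3 to 76.6) of Het and 47.3% (36.9 to 57.9) of WT members, but gave 44.1% and 26.8% of the members' UMIs. The deepest groups were Het members of 50000 to 100000 CPM, with a median of 23262 UMIs, and WT members of 20000 to 50000 CPM, with 16835 UMIs. Since all levels are parts of a fixed total, a larger calprotectin part lowers every other gene's CPM, and the values along this division are a description.

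Neutrophil transcripts were higher in members with more calprotectin. Retnlg had, from the lowest group to the highest, 211, 3148, 8687 and 35426 CPM in Het members and 2380, 5064, 15817 and 30112 CPM in WT members. Mmp9, the gelatinase of the last granules to form, had 46.8, 204, 602 and 1101 CPM in Het and 177, 243, 515 and 975 CPM in WT members. Ly6g, the surface protein by which mouse neutrophils are usually sorted, had 0, 50.9, 320 and 576 CPM in Het and 23.1, 141, 145 and 523 CPM in WT members. In all 3 genes the group of 200000 CPM and more was the highest in both libraries.

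G0s2 had 117, 1487, 1634 and 2869 CPM in the Het groups and 892, 1070, 1441 and 2933 CPM in the WT groups. Wfdc17, a small secreted protein of activated phagocytes, had 2808, 2903, 5664 and 8976 CPM in Het and 2268, 3935, 3676 and 8996 CPM in WT members. Il1b, the cytokine interleukin-1 beta, was less graded, with 3323, 2424, 5873 and 5361 CPM in Het and 3041, 3016, 3088 and 5946 CPM in WT members. Il1b was thus abundant even in the members with the least calprotectin.

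Markers of monocytes summed over the list were lower in members with more calprotectin. The 11 monocyte markers together stood at 4610, 2873, 2212 and 502 CPM from the lowest to the highest group of Het members and at 3787, 3027, 2301 and 733 CPM of WT members. Single genes, chosen after their values were seen, were less graded. Csf1r, the receptor by which monocytes and macrophages receive their growth factor, had 234, 570, 283 and 57.0 CPM from the lowest to the highest group of Het members and 515, 443, 345 and 112 CPM of WT members. Klf4, a transcription factor of monocyte differentiation, had 281, 683, 283 and 34.2 CPM in Het and 673, 697, 303 and 40.2 CPM in WT members. Ace, angiotensin-converting enzyme, a marker of nonclassical monocytes in mice, had 0, 448, 406 and 11.4 CPM in Het and 435, 308, 212 and 26.8 CPM in WT members. For all 3 genes the members at 200000 CPM and more were at a fraction of the level of the group below them, but in Het members Ace was at 0 in the lowest group and Csf1r and Klf4 were highest in the second.

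Tmsb10, an actin-binding thymosin, had 8798, 3789, 2347 and 257 CPM through the Het groups and 5806, 3243, 2410 and 438 CPM through the WT groups. H2-K1, a classical class I antigen-presenting protein, had 702, 1589, 971 and 154 CPM in Het and 1226, 1205, 1066 and 478 CPM in WT members. The number of genes found in 1000 UMIs was also lower along the division, with medians of 606, 588.5, 491.5 and 347 in Het and 597, 588, 512 and 362.5 in WT members. Under 200000 CPM lay 18 of 49 Het and 49 of 93 WT members, and of these 15 Het and 42 WT members had a UMI of a monocyte marker, with a median sum of 2102 and 2689 CPM. At 200000 CPM and more, 22 of 31 Het and 38 of 44 WT members had one, with a median sum of 284 and 435 CPM. Whether barcodes with monocyte transcripts held 1 cell, more than 1 cell or free RNA of another cell was not tested.

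**Figure D2:**
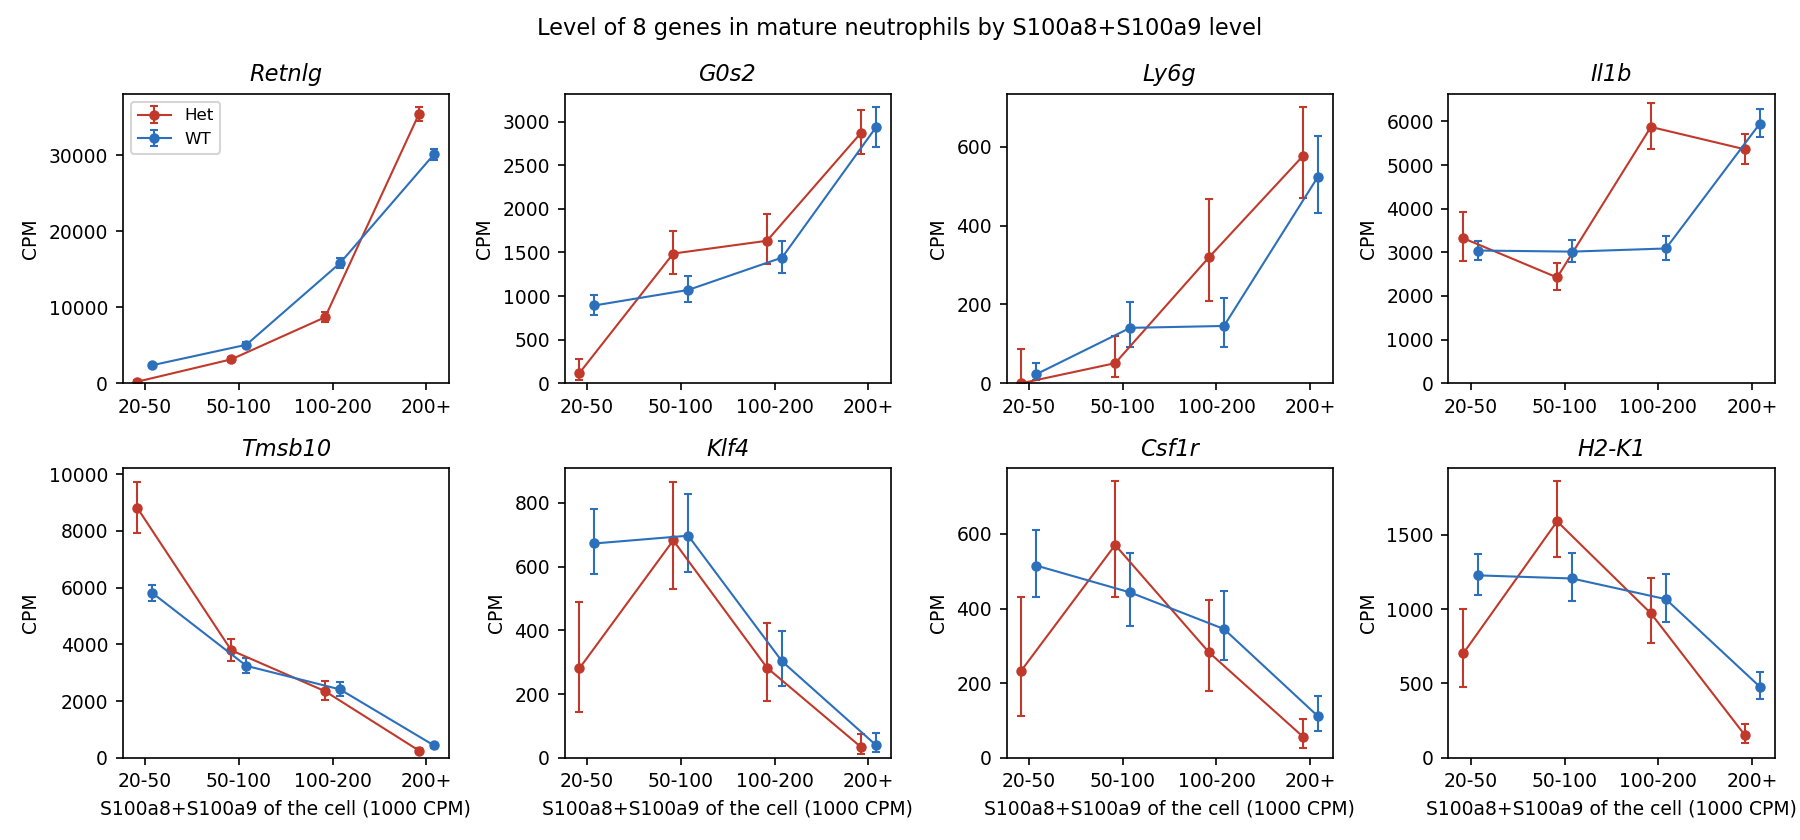
Levels (CPM, with counting intervals) of 8 genes in members grouped by their S100a8+S100a9 sum, from 20000 to 50000 CPM up to 200000 CPM and more, for Het and WT. Retnlg, G0s2 and Ly6g are highest in the group with most calprotectin, and Tmsb10, Klf4, Csf1r and H2-K1 are lowest there.

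**Figure D3:**
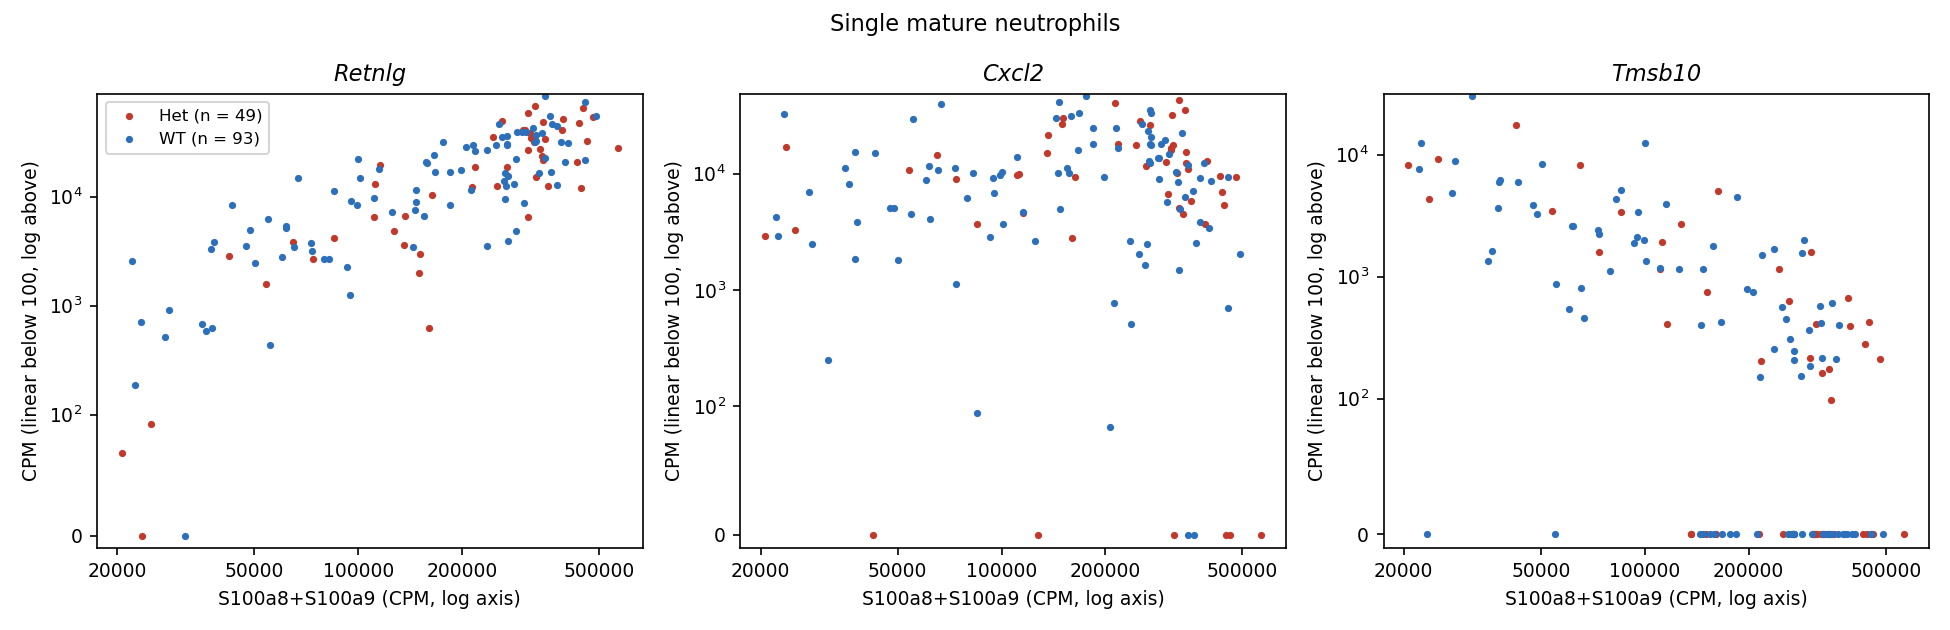
Each point is 1 member, with its S100a8+S100a9 level (CPM, log axis) across and its level of Retnlg, Cxcl2 or Tmsb10 (CPM) up the page, for Het and WT. Retnlg reaches 68029 CPM in Het and 84149 CPM in WT members, and Tmsb10 is at 0 in many members with much calprotectin.

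Outside the gate, 12 transcripts were named for the highest ratio of variance to mean of thinned UMIs over the members. They were Retnlg, Malat1, Fth1, S100a6, Cxcl2, Lyz2, Wfdc17, Il1b, Ifitm1, Tmsb10 and the stefin-like genes Cstdc4 and Cstdc5, inhibitors of cysteine proteases. That ratio can rise with the level, and Retnlg, Malat1, Fth1, S100a6, Cxcl2, Lyz2 and Wfdc17 were also among the 15 most abundant genes. Cstdc5 was found in 6 Het and 14 WT members, and 1 Het member held 60.4% of the Het UMIs. Stfa2l1, of the same family, was found in 30 Het and 40 WT members, with a highest level of 9415 CPM in Het and 10885 CPM in WT members. Stefin genes of this cluster are near-identical copies, so the split of reads among them is uncertain. Ifitm1, an interferon-induced membrane protein, was found in 47 Het and 81 WT members, with medians of 2354 and 2349 CPM. Ifitm1 was thus spread over most members at a like median, and Cstdc5 was found in few.

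The cells most like the members were the granule-high neutrophils, which differ by rule only in having 3000 CPM or more of Camp, Ngp and Ltf. The gate made this contrast, so it is a description and supports nothing. Cathelicidin (Camp) stood at 52.8 and 69.6 CPM in Het and WT members, against 27987 and 22233 CPM in Het and WT granule-high cells. Neutrophilic granule protein (Ngp) stood at 314 and 320 CPM in members, against 33889 and 26749 CPM in granule-high cells, and lactotransferrin (Ltf) at 32.7 and 13.2 CPM against 7384 and 5906 CPM. Calprotectin was lower in members too, since S100a8 stood at 158086 CPM in Het and 134545 CPM in WT granule-high cells.

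Of 3171 genes with at least 50 UMIs and a mean of at least 20 CPM in both libraries, 166 (5.23%) were at least 2-fold higher in members in both libraries and 82 (2.59%) at least 2-fold lower. The median log2 ratio of members over granule-high cells was 0.27 in the Het library and 0.33 in the WT library. With TMM scaling, which sets the bulk of genes level, it was -0.10 and -0.04, and the counts were 47 higher and 141 lower, so counts under TMM scaling are given beside the others below.

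Genes of the specific granules were lower, also beyond the gate. Of 13 genes compared, 9 were at least 2-fold lower and 0 higher in both libraries (10 and 0 with TMM scaling), 3 of which are the genes of the gate. Without those, 6 of 10 were lower and 0 higher, with median log2 ratios of -1.77 (Het) and -1.78 (WT). The 6 were Lcn2, Chil3, Olfm4, Cd177, Anxa1 and Ifitm6. Lcn2, the iron-chelator binding protein lipocalin 2, stood at 2568 and 2202 CPM in Het and WT members, against 13911 and 11240 CPM in Het and WT granule-high cells. It was therefore still well measured in the members, in 46 of 49 Het and 84 of 93 WT cells.

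Azurophil granule genes, made earlier, did not all go one way. Of 5 compared, 3 were at least 2-fold lower (Ms4a3, Serpinb1a and Prtn3) and 1 higher (Srgn), with the same counts under TMM scaling. Srgn, the proteoglycan core serglycin, held most of the list's sum in members, which was 4954 and 4512 CPM in Het and WT members against 2351 and 2640 CPM in Het and WT granule-high cells. Some genes of the lowest ratios were at or near 0 in members. Ms4a3, a membrane protein of granulocyte progenitors, had no UMI in any member, against 65.4 CPM in Het and 51.7 CPM in WT granule-high cells, which makes it at least 8.66-fold lower in Het and 14.4-fold lower in WT members, taking 3 UMIs per library as the limit. Fcnb (ficolin B, of specific granules) had log2 ratios of -4.93 (-7.22 to -3.37) in Het and -4.74 (-6.19 to -3.60) in WT. Cebpe, the transcription factor that drives the specific granule program, had 1 UMI in Het and 8 UMIs in WT members, with ratios of -6.17 (-11.5 to -3.68) and -3.74 (-4.97 to -2.74). All 3 intervals or limits lay below 0 in both libraries.

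Of 14 cell cycle genes compared, 8 were at least 2-fold lower and 0 higher (12 and 0 with TMM scaling), among them Ube2c, Top2a, Birc5 and Mki67. Ube2c, a ubiquitin-conjugating enzyme of mitosis, stood at 7.54 and 14.4 CPM in Het and WT members, against 94.7 and 169 CPM in Het and WT granule-high cells. The list medians were -1.78 (Het) and -1.40 (WT). Cell cycle transcripts were thus higher in the granule-high cells.

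Genes of inflammatory signalling were higher in members. Of 17 compared, 9 were at least 2-fold higher and 0 lower in both libraries (6 and 0 with TMM scaling), with median log2 ratios of 1.39 (Het) and 1.13 (WT). The 9 were Cxcl3, Il1b, Ccl6, Ptgs2, Cxcl2, Ccrl2, Nfkbia, Il1rn and Nfkbiz. Il1b (chr2:129364570-129371139, minus strand) stood at 4522 CPM in Het and 3824 CPM in WT members, against 452 and 569 CPM in Het and WT granule-high cells, log2 ratios of 3.32 (3.20 to 3.46) and 2.75 (2.65 to 2.85). It was found in 46 of 49 Het and 88 of 93 WT members. In cells thinned to 1000 UMIs the share with Il1b was 87.8% of Het and 84.95% of WT members, against 25.0% and 29.7% of Het and WT granule-high cells and 15.4% and 20.9% of C1q-positive cells.

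Cxcl2 (chr5:90903871-90905938, plus strand), a chemokine that attracts neutrophils through Cxcr2, was the most abundant chemokine of the members. It stood at 10864 CPM in Het and 8071 CPM in WT members, against 2056 and 2229 CPM in Het and WT granule-high cells, and single members reached 43315 CPM (Het) and 46763 CPM (WT). Cxcl3 (chr5:90786103-90789600, plus strand), its neighbour and close relative, was much rarer, in 14 Het and 25 WT members, at 186 and 127 CPM against 2.04 and 7.23 CPM. Ccl6, a chemokine for monocytes, stood at 1393 CPM in Het and 1433 CPM in WT members, against 292 and 299 CPM. Ptgs2, the inducible cyclo-oxygenase of prostaglandin synthesis, stood at 249 CPM in Het and 149.9 CPM in WT members, against 51.1 and 32.2 CPM. These genes are named from those past 2-fold in both libraries, so that their direction was alike in both is no finding.

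Both chemokine promoters held a match to GGGANTTTC, a form of the motif bound by NF-kappaB, shown in capitals in the 250 bases before the RefSeq start site (GRCm38.p6). They are shown because they hold the match, in 2 of the 3 chemokines named as higher in members. The stretches are chr5:90903649-90903898 (plus strand) for Cxcl2 and chr5:90785851-90786100 (plus strand) for Cxcl3.
Cxcl2: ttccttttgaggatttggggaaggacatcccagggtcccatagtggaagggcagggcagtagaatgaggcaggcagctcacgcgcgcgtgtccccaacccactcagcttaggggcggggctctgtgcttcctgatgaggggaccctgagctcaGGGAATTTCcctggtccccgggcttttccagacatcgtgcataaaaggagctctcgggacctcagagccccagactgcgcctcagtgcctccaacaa
Cxcl3: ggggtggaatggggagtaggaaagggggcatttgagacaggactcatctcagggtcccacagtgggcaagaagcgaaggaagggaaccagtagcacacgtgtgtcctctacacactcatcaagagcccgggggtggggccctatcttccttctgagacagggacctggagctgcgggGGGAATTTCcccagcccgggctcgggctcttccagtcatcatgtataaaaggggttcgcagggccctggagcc
The first base of the match lay 97 bases before the start site in Cxcl2 and 73 bases before it in Cxcl3. On both strands, the motif was found in 309 of 32851 promoters (0.941%), and in 3 of the 8 inflammatory genes above that have a promoter in the table, Cxcl2, Cxcl3 and Nfkbia. It was also in the promoters of Cxcr2 and S100a9. Of the 12 genes with the highest ratios over granule-high cells, 11 had a listed promoter, and 1 of these (Cxcl3) held the motif. The motif was chosen after the values were seen, and a match is a description of these letters and not a shown binding site.

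The promoters of 2 genes that mark the members held a match to TTGCNNAA, a form of the motif bound by C/EBP factors, which drive granulocyte differentiation. It was found in Retnlg and S100a9 of the 5 marker genes, in capitals here, and in 3142 of 32851 promoters (9.56%), so it is a common word. It was in 0 of the 11 listed promoters of genes highest over granule-high cells and in 1 of the 8 inflammatory ones (Ptgs2). The stretches are chr16:48872358-48872607 (plus strand) for Retnlg, where the match lies on the other strand, and chr3:90695722-90695971 (minus strand) for S100a9.
Retnlg: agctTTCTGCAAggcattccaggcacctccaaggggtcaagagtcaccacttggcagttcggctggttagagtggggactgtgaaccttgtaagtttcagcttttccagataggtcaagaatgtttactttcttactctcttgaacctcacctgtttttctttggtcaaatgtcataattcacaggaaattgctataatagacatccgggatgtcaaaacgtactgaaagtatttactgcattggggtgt
S100a9: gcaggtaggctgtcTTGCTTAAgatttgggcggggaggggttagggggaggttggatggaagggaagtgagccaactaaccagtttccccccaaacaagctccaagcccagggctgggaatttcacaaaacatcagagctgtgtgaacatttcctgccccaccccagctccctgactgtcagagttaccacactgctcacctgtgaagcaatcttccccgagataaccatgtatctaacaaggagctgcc
The first base of the match lay 246 bases before the start site in Retnlg and 236 bases before it in S100a9. Cebpb, the C/EBP factor of mature and activated myeloid cells, was among the 15 most abundant genes of the members, at 4607 CPM in Het and 4558 CPM in WT members, against 2059 and 2326 CPM in Het and WT granule-high cells.

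Receptors and sensors were higher in part. Of 20 pattern recognition genes compared, 6 were at least 2-fold higher in members in both libraries (2 with TMM scaling, and then 2 lower), namely Clec4d, Nlrp3, Trem1, Cd14, Clec4e and Tlr13. Clec4d, a lectin receptor for microbial glycolipids, stood at 500.4 CPM in Het and 364 CPM in WT members, against 84.4 and 77.3 CPM in Het and WT granule-high cells. Of 20 genes of chemotaxis and adhesion, 5 were higher and 0 lower (2 and 0 with TMM scaling), among them Fpr1, Cxcr2, Ptafr and Selplg. Csf3r, the G-CSF receptor, had log2 ratios of 2.39 (2.06 to 2.73) in Het and 2.20 (1.92 to 2.48) in WT.

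Other genes high in members were Acod1, the itaconate-making enzyme of activated myeloid cells, with log2 ratios of 3.16 (2.79 to 3.54) in Het and 2.76 (2.45 to 3.07) in WT. Hcar2, the receptor for niacin and ketone bodies, had ratios of 3.25 (2.60 to 3.93) and 3.67 (3.095 to 4.29). Jaml, an adhesion molecule by which leukocytes cross epithelia, had ratios of 3.80 (3.01 to 4.66) and 2.91 (2.22 to 3.65). Ifitm1 stood at 3154 CPM in Het and 2489 CPM in WT members, against 274 and 379 CPM in Het and WT granule-high cells. These genes lay outside the lists of granule and inflammatory genes and were named for being higher in both libraries.

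Of the other lists, 4 of 10 interferon-response genes (3 with TMM scaling), 4 of 17 survival and cell death genes (0 with TMM scaling) and 4 of 30 transcription factors (0 with TMM scaling) were at least 2-fold higher in members in both libraries. In the survival list the most abundant of them was Mcl1, an anti-apoptotic protein on which neutrophil lifespan depends, at 2120 CPM in Het and 1855 CPM in WT members, against 728 and 863 CPM in Het and WT granule-high cells. None of the 7 genes of the NADPH oxidase, the enzyme of the respiratory burst, and none of 25 genes of the cytoskeleton passed 2-fold in both libraries in either direction. The counts for the survival and transcription factor lists thus depended on the scaling. Those for granule, cell cycle and inflammatory genes kept their direction with TMM scaling. With members and granule-high cells both limited to 200000 CPM of calprotectin and more, 9 of 17 inflammatory genes were higher and 2 lower. In that setting 0 of 13 specific granule genes were higher and 11 lower, and 0 of 13 cell cycle genes were higher and 10 lower. Of all 2055 genes compared there, 172 were higher and 262 lower, against 166 and 82 of 3171 in the main setting.

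**Figure D4:**
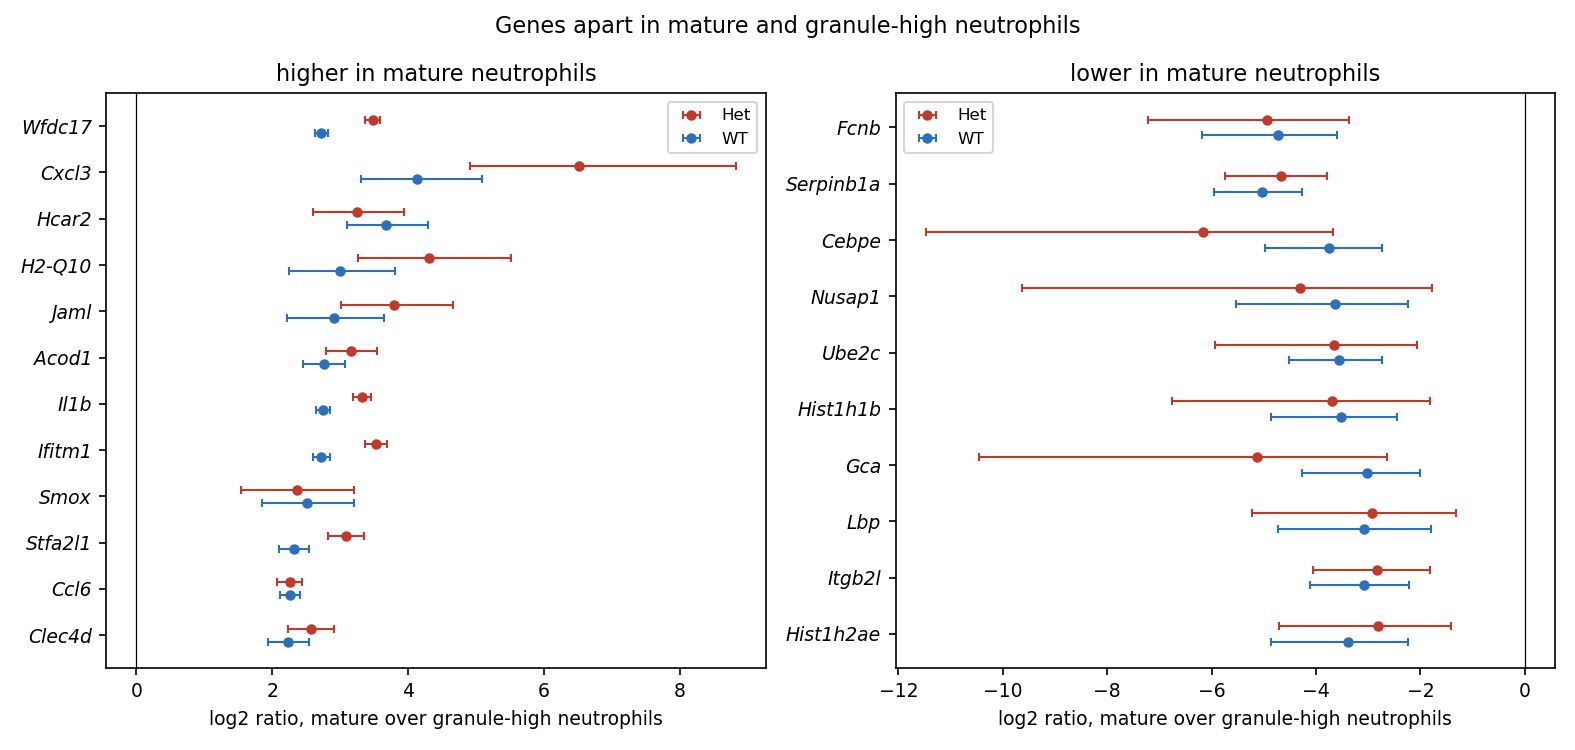
Log2 ratio of members over granule-high neutrophils (points, with counting intervals) for the 12 genes highest in members and 10 of the 12 lowest, for Het and WT. The values run from 6.51 for Cxcl3 to -6.17 for Cebpe, both in the Het library, and Ms4a3 and Orm1 are not drawn because a library had no UMI of them in members.

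The genotypes were set against each other over all members. Of 2845 genes with at least 50 UMIs and a mean of at least 20 CPM, 102 (3.59%) were at least 1.5-fold higher and 485 (17.0%) at least 1.5-fold lower in Het members. The median log2 ratio of all genes was -0.19, and with TMM scaling it was -0.03, with 193 genes higher and 266 lower. Of the 587 genes past 1.5-fold, 46.8% had fewer than 20 UMIs in the lower library. Het members were also richer in cells of 200000 CPM of calprotectin and more, so main results are given also with the ratio in those 31 Het and 44 WT members, where 22 of 750 genes (2.93%) were higher and 99 (13.2%) lower. Some genes given a ratio in those 31 Het and 44 WT members were below the minimum of 50 UMIs or a mean of 20 CPM there. Where 1 member held much of a gene's UMIs, the ratio without the member holding most in each library is given too.

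Neutrophil genes were in part higher in Het members, and for some the direction changed with the cells compared. Of the 15 neutrophil markers, 5 were at least 1.5-fold higher and 0 lower (9 and 0 with TMM scaling), with a median log2 ratio of 0.44, namely Cd177, Il1r2, Slpi, Ly6g and S100a8. S100a8 and S100a9 of this list are genes of the gate. Among members at 200000 CPM and more, 1 of the 15 was higher and the median was 0.14. Retnlg had a log2 ratio of 0.48 (0.43 to 0.52) over all members, 0.23 in those with most calprotectin and -0.13 for Xist-marked Het over Y-marked WT members. G0s2 had 0.32 (0.19 to 0.45) over all members and -0.03 in those with most calprotectin, and it also turned with equal weight per cell (-0.07) and with cells thinned (-0.18). Il1b had 0.24 (0.16 to 0.33) and -0.15, and Wfdc17 had 0.38 (0.30 to 0.45) and 0.00. Cxcr2, at 453 CPM in Het and 380 CPM in WT members, had 0.25 (-0.02 to 0.52), an interval that includes 0, -0.12 in those with most calprotectin and -0.08 with equal weight per cell.

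Of 17 inflammatory genes, 3 were higher (Ptgs2, Il1r2 and Il1rn) and 3 lower (Ccl3, Osm and Tnf) in Het members, with a median of -0.17. Of all genes 3.59% were higher and 17.0% lower, with a median of -0.19, so the lower count was like that of all genes. With TMM scaling 5 were higher and 2 lower, with a median of -0.01. Among members with most calprotectin 0 of 11 were higher and 2 lower, with a median of -0.005. Ccl3, a chemokine for monocytes and neutrophils, stood at 158 CPM in Het and 438 CPM in WT members, a log2 ratio of -1.47 (-1.88 to -1.08), which was -0.56 in members with most calprotectin. Osm, the cytokine oncostatin M, stood at 115.7 and 219 CPM, with a ratio of -0.92 (-1.42 to -0.45) over all members and -1.85 in those with most calprotectin. Cxcl2, at 10864 CPM in Het and 8071 CPM in WT members, had ratios of 0.43 (0.37 to 0.48) and 0.49. Both ratios were within 1.5-fold, which for Cxcl2 did not hold with TMM scaling (0.59).

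Lists of survival, transcription factor and cell cycle genes had more lower than higher members in the Het library, as did all genes. Of 18 survival and cell death genes, 0 were at least 1.5-fold higher and 5 lower (0 and 3 with TMM scaling), among them Bcl2a1b, Cflar, Gsdmd and Pmaip1, with a median log2 ratio of -0.32. Bcl2a1b, an anti-apoptotic protein of the A1 family, stood at 214 CPM in Het and 400.5 CPM in WT members, a ratio of -0.91 (-1.27 to -0.56) over all and -3.27 in those with most calprotectin, and its near-identical copies make that split uncertain. Of 30 transcription factors, 2 were higher (Ets2 and Nfil3) and 4 lower (Runx1, Atf3, Klf4 and Nr4a1), against 2 and 1 with TMM scaling. Of 12 interferon-response genes, 2 were higher (Rsad2 and Slfn1) and 3 lower, among them Bst2 and Irf7, against 3 and 2 with TMM scaling. Of 7 cell cycle genes, 0 were higher and 4 lower, with a median of -0.84. Among members with most calprotectin, 0 of 3 survival genes, 0 of 18 transcription factors and 0 of 2 cell cycle genes compared were lower. There 1 transcription factor was higher, and 1 of 4 interferon-response genes was lower. Few survival and cell cycle genes could be compared in that setting.

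Class I antigen presentation genes were within 1.5-fold or lower in Het members. H2-K1 stood at 734 CPM in Het and 989 CPM in WT members, a log2 ratio of -0.43 (-0.63 to -0.24), and the ratio was -1.64 among members at 200000 CPM and more. B2m, the light chain shared by class I molecules, stood at 1594 and 2280 CPM, with ratios of -0.52 (-0.65 to -0.39) and -0.92. Of the 9 class I genes compared over all members, 2 were at least 1.5-fold lower and 0 higher (1 and 0 with TMM scaling), beside the 17.0% of all genes that were lower, and of the 4 compared in members with most calprotectin, 2 were lower. Copies of the H2-Q family are near-identical, so the low count of H2-Q7 is uncertain.

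Other genes were lower in both settings. Itga4, the alpha chain of the integrin VLA-4, stood at 282 CPM in Het and 519 CPM in WT members, with log2 ratios of -0.88 (-1.19 to -0.58) over all and -1.84 in those with most calprotectin. Cybb, the catalytic subunit of the NADPH oxidase, stood at 581 and 921 CPM, with ratios of -0.66 (-0.88 to -0.45) and -1.91. Dusp2, a phosphatase that ends MAP kinase signals, stood at 204 and 363 CPM, with ratios of -0.83 (-1.21 to -0.48) and -2.49. In the C1q-positive cells under the S100 minimum the ratio was -0.79 for Itga4, -0.01 for Cybb and -1.25 for Dusp2. Among the higher genes Ets2, a transcription factor, had ratios of 0.85 (0.51 to 1.19) and 0.76, and Pgk1, an enzyme of glycolysis, had 0.65 (0.33 to 0.96) and 0.65.

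The 12 genes with the highest ratios in Het members included 4 genes of class II antigen presentation, which neutrophils at rest make little of. H2-Aa stood at 282 CPM in Het and 61.2 CPM in WT members, a log2 ratio of 2.20 (1.71 to 2.71). A single Het member held 69.6% of these UMIs, and it also held most of the H2-Ab1, H2-Eb1, Cd74 and Mt1 UMIs. That cell had 23355 UMIs, 4091 genes and 53864 CPM of calprotectin. Without the top cell of each library the ratio was 0.89 for H2-Aa, 0.29 for Cd74, 0.19 for H2-Eb1 and 0.03 for H2-Ab1, and among members at 200000 CPM and more it was -1.06, -2.46, -0.97 and -0.39. The higher level of these 4 genes thus rested mostly on 1 cell.

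Hmox1, heme oxygenase, stood at 302 CPM in Het and 88.7 CPM in WT members, with a log2 ratio of 1.77 (1.34 to 2.20), which was 1.38 without the top cells and 0.57 in members with most calprotectin. A single Het member held 40.8% of the Het Hmox1 UMIs. The Het members of 25127 and 20639 CPM of calprotectin stood at 2263 and 2537 CPM of Hmox1. With a minimum of 50000 CPM of calprotectin the Hmox1 ratio changed sign. Stfa1 stood at 639 and 242 CPM, a ratio of 1.40 (1.13 to 1.67), and 1 Het member held 57.1% of its UMIs. Without the top cells the ratio was 0.46, under 1.5-fold, and it was 1.97 in members with most calprotectin. Ttr, the thyroxine carrier made by choroid plexus and liver, stood at 110.7 CPM in Het and 36.0 CPM in WT members. Its ratio was 1.62 (0.92 to 2.34) over all members, 1.78 without the top cells and 2.40 with most calprotectin, and it stood at 110.3 and 50.5 CPM in the C1q-positive Het and WT cells. The level of Ttr in members was therefore close to that in another cell type of the same library. Rhov, Med31, Pdlim7 and Antxr2 followed with ratios of 1.07 to 1.24 on 26 to 29 Het UMIs each.

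The 12 genes with the lowest ratios were rare in Het members, with 0 to 33 UMIs each. Gdf15, a stress-induced cytokine, had no UMI in Het members and 63 UMIs in WT members (75.6 CPM), at least 10.0-fold lower in Het taking 3 UMIs as the limit, and 1 WT cell held 47.6% of them. Chil3, a chitinase-like protein of granulocytes and macrophages, stood at 83.0 CPM in Het and 352 CPM in WT members, with a log2 ratio of -2.09 (-2.65 to -1.57). A single WT member held 60.2% of its UMIs, and the ratio was -1.40 without the top cells and -1.46 in members with most calprotectin. Rexo2, Nbn, Stfa2, Hes1, Acp5, Ubr2, Slc12a2, H2-Q7, Tmem131 and Nufip2 had ratios between -2.89 and -1.62. Counting intervals for these genes were wide, as for Rexo2 with -2.89 (-4.81 to -1.46).

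**Figure D5:**
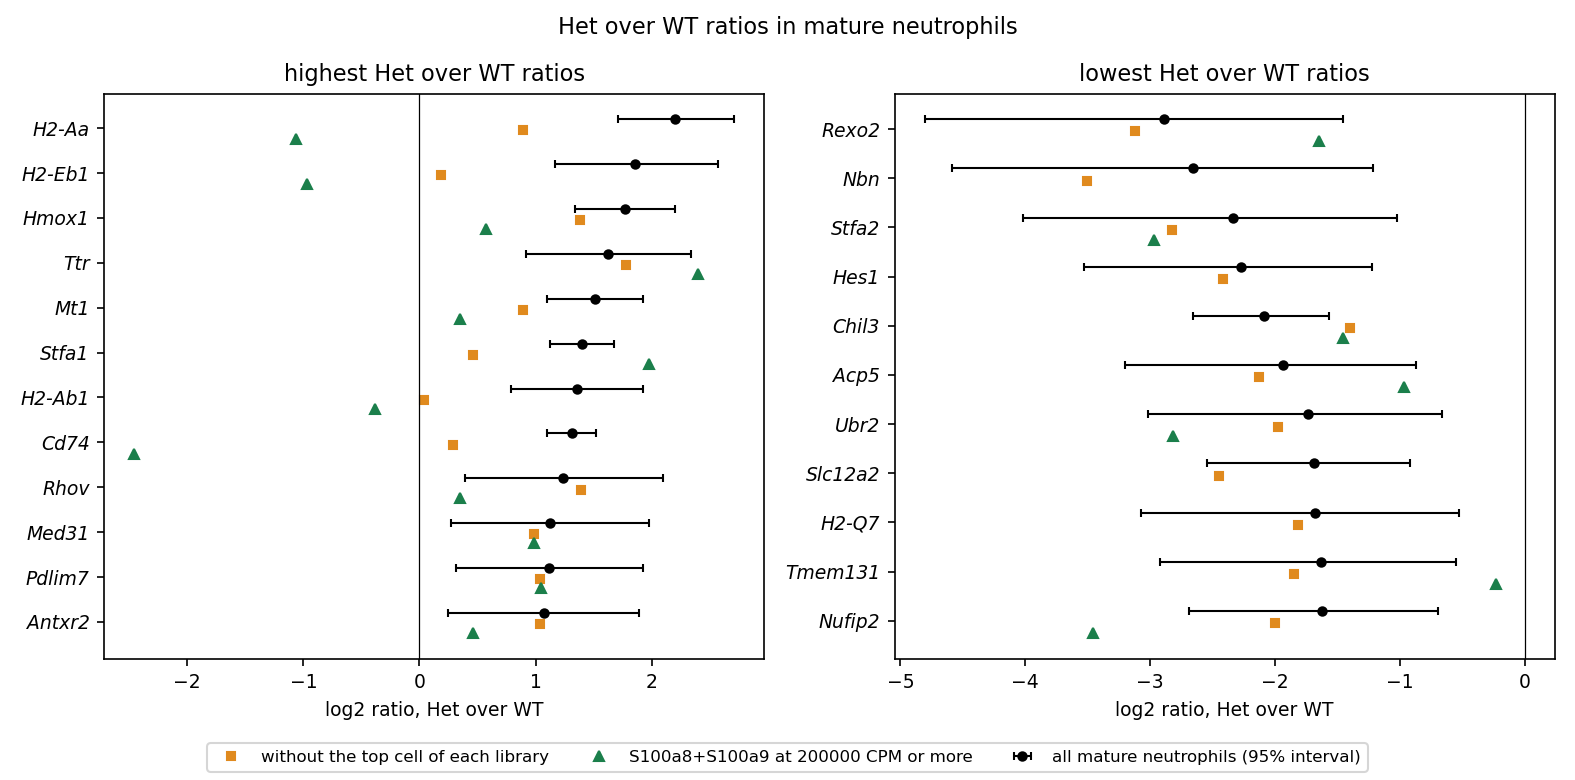
Log2 ratio of Het over WT members for the genes at the high and low ends, over all members (with counting interval), without the cell holding most UMIs in each library, and among members at 200000 CPM of S100a8+S100a9 and more. The class II genes lie above 1.3 over all members. They lie at -0.39 or lower in members with most calprotectin, where they were below the UMI and CPM minimum. Gdf15 is not drawn because it had no UMI in Het members.

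Cx3cr1 (chr9:119901616-120069879, minus strand), the fractalkine receptor and the gene that differs between the genotypes, was low in members. It had 36 UMIs in 9 Het members and 207 UMIs in 40 WT members, which makes 90.5 CPM (63.4 to 125) in Het and 248 CPM (216 to 284) in WT members, a log2 ratio of -1.46 (-2.01 to -0.94). A single Het member with 34964 UMIs held 52.8% of the Het UMIs, and the ratio was -2.29 without the top cells. Among members with most calprotectin it stood at 11.4 CPM in Het and 67.1 CPM in WT cells. In cells thinned to 1000 UMIs Cx3cr1 was found in 2.04% of Het and 11.8% of WT members, beside 5.56% and 12.1% of Het and WT granule-high cells. Whether these Cx3cr1 UMIs came from the members themselves was not tested. The deposited files do not say which part of Cx3cr1 the Cx3cr1- allele lacks, so this level does not check the genotype.

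Markers of other cells moved with these comparisons. All 11 monocyte markers had UMIs in both sets of members, and their sum per cell ranged from 0 to 5828 CPM in Het members (median 732) and from 0 to 6772 CPM in WT members (median 1195). Of 10 monocyte markers compared, 4 were at least 1.5-fold lower in Het members and 0 higher (1 and 0 with TMM scaling), with a median log2 ratio of -0.49. All 18 microglia and macrophage markers had UMIs, with sums of 211 to 14555 CPM in Het members (median 2560) and 233 to 14847 CPM in WT members (median 4490). Of 10 compared, 3 were lower (Cx3cr1, C1qc and Apoe) and 0 higher (2 and 0 with TMM scaling), with a median of -0.50. The list includes the C1q genes that the gate limits, and Cx3cr1 is the gene that differs between the genotypes. The part of monocyte, microglia and macrophage transcripts in the lower Het values of Ccl3, Cybb, Itga4 and class I genes was not tested. Markers of natural killer and T cells were at most 508 CPM in any WT member and reached 26128 CPM in 1 Het member, which held 29 of the 31 Gzma UMIs of the Het members.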

How the data were processed

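Per the labels' protocols, single-cell libraries were made with the Chromium 3′ v3.1 kit and sequenced as paired-end reads. The authors deposited raw counts of UMIs per gene and barcode, not normalized. Per the submitters' processing notes Cell Ranger 4.0 and mm10 were used, while version 5.0.0 is named per the file headers of the matrices. Gene positions came from GENCODE M21 (GRCm38), in which 32158 of 32285 listed genes had an identifier, and promoters from RefSeq.

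From the counts, barcodes were filtered and gated as described, and UMIs were summed over members per library and expressed as CPM. No doublet caller was run and no doublet removed. Intervals were conditional binomial (exact) for ratios, exact Poisson for CPM and Clopper-Pearson for shares, at 95%. TMM factors came from edgeR 4.0.16 in R 4.3.3, with no count test. Cells were thinned to 1000 UMIs with a fixed seed. The code was tested on simulated data.

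Genes named were the 8 genes of the gate, the markers and Cx3cr1, the 15 most abundant genes, and the 12 highest and 12 lowest of each comparison. Also named were the 12 with the highest ratio of variance to mean, and 4 abundant and up to 4 differing members of each of 26 gene lists. Predicted, ribosomal, mitochondrial and sex-marker genes were left out. Genes given as the names behind a list count, and the members of the groups by calprotectin, were named after their values were seen. The members, lists and tests were chosen with earlier results of these data known. The alternatives tried were other limits of the gate and cell filter, other scalings, equal weight per cell, thinning, other UMI minimums, and sex-marked members only. Some genes that this rule or a list count takes are not reported here.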

Additional observations from a re-analysis of the deposited data

Results flagged for a closer look

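The 4 class II genes had opposite directions in members and in granule-high neutrophils, and the difference was not tested. The log2 ratio of Het over WT was 2.20 in members and -1.42 in granule-high cells for H2-Aa, and 1.85 and -2.08 for H2-Eb1. It was 1.36 and -2.15 for H2-Ab1, and 1.31 and -0.81 for Cd74. All 4 had 65.0% or more of their Het member UMIs in 1 cell.

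Cells meeting the gate also appeared among barcodes that the comparisons left out. Of the barcodes listed in both libraries that passed the cell filter, 4 of 255 Het barcodes (1.57%, 0.429 to 3.97) met it, above the 1.18% that a count of 0 allows. Of those failing the cell filter, 9 of 269 WT barcodes (3.35%, 1.54 to 6.26) met it, above 1.11%.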

How the results depend on the processing

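No paired analysis was possible because each genotype had 1 library, so the groups share fewer than 2 replicate numbers. The 200000 CPM minimum of calprotectin and the removal of the top cell of each gene were chosen after seeing the data. Member shares (3.97% Het, 5.31% WT) were 2.51% and 2.51% at that minimum, 0.729% and 1.49% with no C1q UMI allowed (9 Het and 26 WT members), and 3.48% for WT at a C1q limit of 500 CPM. The 102 genes higher in Het became 166 with shared barcodes kept, 22 at 200000 CPM, 193 with TMM scaling, 216 with median-of-ratios scaling, 158 with the gate genes left out of the total, 17 after thinning, 256 and 22 at minimums of 10 and 200 UMIs, and 28 with no C1q UMI. The 485 lower genes became 247 at a minimum of 50000 CPM, 243 at the C1q limit of 500 CPM, 99 at 200000 CPM, 266 with TMM, 240 with median-of-ratios, 744 with equal weight per cell, 64 after thinning, 864 and 72 at 10 and 200 UMIs, 734 without top cells, 203 with Xist-marked Het over Y-marked WT members, and 116 with no C1q UMI. The 166 genes higher in members than in granule-high cells became 47 with TMM, 54 with median-of-ratios, 53 without gate genes in the total, 33 after thinning, 68 at 200 UMIs, and 34 with no C1q UMI. The 82 lower ones became 262 at 200000 CPM, 141 with TMM, 129 with median-of-ratios, 139 without gate genes, 11 after thinning, 34 at 200 UMIs, and 10 with no C1q UMI. Between Het and WT, 2845 genes were compared in the main setting, with other scalings or totals, equal cell weights and without top cells. Fewer were compared with no C1q UMI (339), after thinning (336), at 200 UMIs (814) and at 200000 CPM (750). The same held at the C1q limit of 500 CPM (1965), at 50000 CPM (2093) and with sex-marked members (2306). More were compared at 10 UMIs (4395) and with shared barcodes kept (3013). Counts at unequal totals do not show a rise or fall in share. For settings with the same total the cause was not tested.

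Of 466 values of single genes under these settings, 371 stayed within the counting interval of the main ratio. A further 77 lay outside it with the sign kept, some at a smaller ratio, as for Cd74 without the top cells (0.29, from 1.31). For Retnlg, Cxcr2 and G0s2, 6 values of ratios under 1.5-fold turned sign (to between -0.18 and -0.03). Of ratios past 1.5-fold, 12 values were reversed, in 7 of 27 genes. At 200000 CPM the log2 ratio was -2.46 for Cd74, -1.06 for H2-Aa, -0.39 for H2-Ab1 and -0.97 for H2-Eb1. Without members above the 95th percentile of UMIs it was -0.19 for Cd74, -0.58 for H2-Ab1 and -0.15 for H2-Eb1. With no C1q UMI it was -0.16 for H2-Aa, -0.57 for H2-Eb1 and -0.38 for Mt1. Hmox1 was at -0.077 with the 50000 CPM minimum, and Stfa1 at -3.79 with sex-marked members only. With 397644 Het and 833926 WT member UMIs, a gene without UMIs is limited to 7.54 CPM in Het and 3.60 CPM in WT members.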

Other observations

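Further gene groups of the members were compared between Het and WT, beside 3.59% of all genes higher and 17.0% lower in Het members. Of 18 glycolysis and hypoxia genes, 2 were at least 1.5-fold higher in Het members (Slc2a1 and Pgk1) and 3 lower (Pfkp, Tpi1 and Hk2). Their median log2 ratio was 0.12, and with TMM scaling 4 were higher and 2 lower. Slc2a1, the glucose transporter GLUT1, stood at 105.6 CPM in Het and 60.0 CPM in WT members, a ratio of 0.82 (0.19 to 1.44) over all members and 1.16 in those at 200000 CPM of calprotectin and more. None of 7 lipid droplet genes passed 1.5-fold, with a median of 0.14. Of 17 cytokine receptors, 1 was higher (Il1r2) and 1 lower (Tgfbr1), with a median of -0.30. Among members at 200000 CPM of calprotectin and more, 0 of 8 were higher and 3 lower. Il1r2, the decoy receptor for interleukin-1, stood at 553 CPM in Het and 342 CPM in WT members, a ratio of 0.69 (0.43 to 0.95).

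Against granule-high cells, members had more of 2 abundant transcripts that neither the granule nor the inflammatory list holds. Malat1 stood at 27024 CPM in Het and 30111 CPM in WT members, against 11658 and 15125 CPM in Het and WT granule-high cells. Fth1, the ferritin heavy chain, stood at 13336 and 10640 CPM in Het and WT members, against 4362 and 5030 CPM. Of 21 immediate early and heat shock genes, 4 were at least 2-fold higher in members in both libraries (Ier5, Junb, Dusp1 and Btg1), and 0 with TMM scaling. Junb, an AP-1 subunit, stood at 3149 CPM in Het and 3001 CPM in WT members, against 1382 and 1355 CPM in Het and WT granule-high cells. Malat1, Fth1 and Junb were within 1.5-fold between Het and WT members.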
